A study of Rattus norvegicus with 16 samples.

Results

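The region described here is a run of protein-protected sites (PPS) on the plus strand of rat chromosome 16, from 77.1 to 77.3 Mb in the rn6 build. A PPS belonged to it when its midpoint lay between those bounds in any of the 4 deposited lists, which gave 260 PPS out of 329742. Each control list gave 36 of these, NMDA replicate 2 gave 91 and NMDA replicate 3 gave 97. The region was chosen by the position and number of its PPS in these same lists. Its richness in PPS and its difference between NMDA and control are therefore descriptions. Values below are given as pairs, replicate 2 before replicate 3. The 1 Mb on each side served as the reference and held 311 PPS.

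The neurons were primary cultures from the cortex of Sprague–Dawley CD rat embryos at embryonic day 18. Control cultures are labelled as control, and the other group received 10 µM NMDA, an agonist of a class of ionotropic glutamate receptors whose overactivation injures neurons. Per the labels' protocols, treatment was at 15 or 21 days in vitro and lasted 4 or 24 hours, and the labels do not say which of these apply to the libraries used here. Both groups came from the same kind of culture, and no genotype or transgene is named for either. The 16 libraries formed 4 lists of PPS, each made of the 4 libraries of 1 replicate, which leaves n = 2 per group. An exact permutation test of NMDA against control, two-sided, cannot go below p = 0.333. Replicates are numbered 2 and 3 in each group, and no label states that these were separate cultures. The p-values thus measure the spread between lists, which may be technical.

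Protein interaction profile sequencing reads out where proteins sit on RNA. Crosslinked RNA is digested with an RNase either while proteins are still bound or after they have been removed, and a stretch that survives digestion only in the presence of protein is called as a PPS. A nuclease specific for single-stranded RNA (ssRNase, RNase ONE) and one specific for paired RNA (dsRNase, RNase V1) are used side by side, because each leaves a different part of the transcript uncut. A PPS found only with dsRNase is therefore one whose protection was seen against a nuclease that cuts paired RNA. RNA-binding proteins sit on introns as well as on mature messages, where they take part in splicing, export, transport along neurites and decay.

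The whole lists held 97311 and 66261 PPS for control and 85378 and 80792 for NMDA. They carry no read counts, so the depth behind a PPS is unknown. Counted as distinct positions on either strand, 184 to 15915 PPS per pair of lists had identical coordinates, so the lists are not fully independent of each other. On the plus strands of chromosomes 11, 12, 16, 17, 18, 19 and 20 this number was 16 to 88 per pair, on chromosome 16 plus strand 4 to 14, and in the region itself 0 in all 6 pairs. No gene models or sequence of the rn6 build were used, so the region is named by position, no gene, exon or intron is assigned to it, and the labelled cell type could not be checked against marker genes.

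The region had a sharp left edge that was shared by all lists. On the plus strand, all lists were empty from 76100001 up to the 10 kb step that begins at 77150001. The first PPS lay at chr16:77152880-77152930 in control replicate 2 and at chr16:77152657-77152703 in control replicate 3. In NMDA replicate 2 it lay at chr16:77152653-77152704, and in NMDA replicate 3 at chr16:77153007-77153048. These starts fell within 354 bp of each other. Before them, the plus strand was empty for 1764 and 1639 kb (control) and for 1763 and 2844 kb (NMDA). With both strands counted the empty stretch still ran for at least 638 kb in every list. No PPS lay just outside the left bound. The nearest ones to the left began at 75389222 and 75513482 (control) and at 75389243 and 74308747 (NMDA), beyond the flank, with scores of 9.48, 5.40, 4.43 and 11.49, and the first ones inside had 5.40, 5.40, 7.43 and 5.40.

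The right bound cut through a run of PPS that went on past it. The last PPS inside ended at 77293667 and 77297896 (control) and at 77298514 and 77298775 (NMDA), with scores of 6.82, 5.40, 7.43 and 5.40. The next ones outside began at 77306593, 77308809, 77302058 and 77302048, with scores of 6.82, 5.40, 7.43 and 17.35. The gap across the bound was 12.9 and 10.9 kb in control and 3.54 and 3.27 kb in NMDA, so the right side of the region is set by the rule and not by a break in the data. The minus strand was almost bare, with 0 PPS in the region in 3 lists and 1 in NMDA replicate 3.

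**Figure D1:**
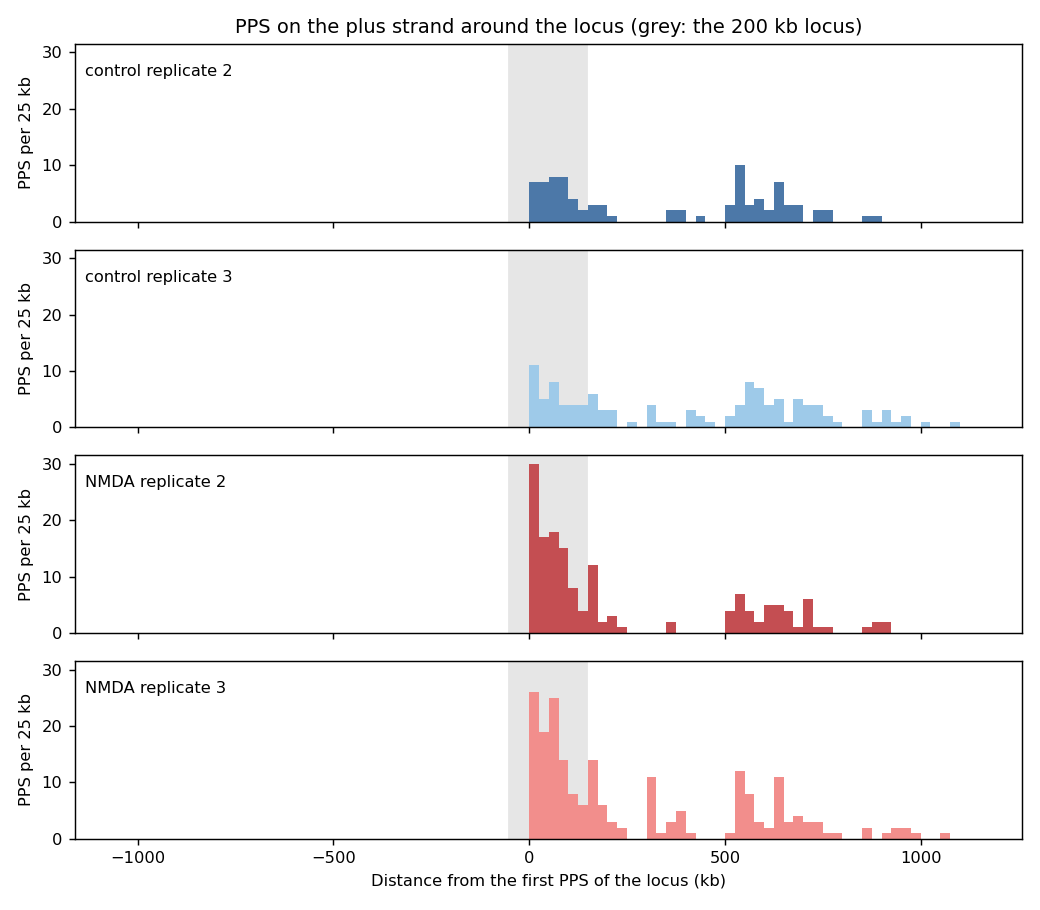
Number of PPS per 25 kb (y axis) on the plus strand of chromosome 16 against distance from the first PPS of the region in kb (x axis), 1 panel per list, with the 200 kb region in grey. All 4 lists are empty to the left of 0 and have their PPS to the right, and the NMDA lists stand higher over the region than the control lists.

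PPS were sparser towards the right end of the region, from 77250001 on, with no steady decline before that. In steps of 10 kb, the first 5 steps of the region were empty and the remaining 15 held from 2 to 32 PPS over the 4 lists. The 3 richest steps were 77150001 to 77160000 with 32 PPS, and 77160001 to 77170000 and 77220001 to 77230000 with 25 each. The step that holds the left edge had 4 and 4 PPS for control against 14 and 10 for NMDA, more in NMDA replicate 2 than in any other step. The part within 100 kb of the first PPS held 83.3% and 77.8% of the control PPS against 87.9% and 86.6% of the NMDA PPS. The share in the first 50 kb was 38.9% and 44.4% in control and 51.6% and 46.4% in NMDA. In each measure the NMDA shares were the higher ones, and no test was applied to them.

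PPS were spaced more closely in the NMDA lists, which held more PPS over a stretch of similar length. From first to last PPS, this stretch was 141 and 145 kb in control and 146 and 146 kb in NMDA. The closer spacing thus goes with the PPS numbers by which the region was chosen and is not independent evidence. The median distance between midpoints of neighbouring PPS was 3202 and 2821 bp for control against 926 and 1040 bp for NMDA. Gaps shorter than 100 bp numbered 1 of 35 in control replicate 2 and 0 of 35 in control replicate 3, against 12 of 90 in NMDA replicate 2 and 7 of 96 in NMDA replicate 3. The longest gap was of a similar size in all 4 lists, 14429 and 14965 bp (control) and 18650 and 16958 bp (NMDA).

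Both NMDA lists held more PPS in the region than both control lists. Scaled to 10000 PPS of its own list, the region held 3.70 and 5.43 PPS in the controls, and 10.7 and 12.01 after NMDA. The groups did not overlap, and the gap between them was larger than the spread within either. The control mean was 4.57 ± 1.23 and the NMDA mean 11.3 ± 0.953 (SD, n = 2), a ratio of 2.48, and the exact permutation test gave the smallest p this design allows, 0.333. Leaving out 1 list at a time kept the difference of 6.77 between 5.90 and 7.63. The region was chosen by PPS numbers in these same lists, so these values describe it and are not independent evidence. Both NMDA lists also lay above both control lists in 13.5% of all stranded 100 kb windows with at least 8 PPS. On chromosome 16 plus strand this share was 21.5%. Among 1000 PPS of chromosome 16 plus strand in the same list, the region took 26.8 and 25.3 in control and 60.7 and 60.0 in NMDA, a ratio of 2.32. Protected bases followed the same order, with 1897 and 1621 bp for control and 4769 and 4830 bp for NMDA. In bulk cultures, a change in the number of cells of a type and a change in RNA per cell cannot be told apart, and no level of the RNA accompanies the lists.

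The difference ran through most of the region and faded towards its right end. Of the 15 steps with PPS, 12 had both NMDA lists above both control lists (scaled to list size) and 0 had them below, and all 12 were among the 14 steps with at least 8 PPS. Of all stranded 10 kb windows with at least 8 PPS, 16.3% showed the first order. These steps are neighbours and not independent of each other. In limma's fit of 11626 such windows, 0 passed an adjusted p of 0.05 (0.0%) and 1.31% were higher in NMDA at an unadjusted p under 0.05. Of the 14 steps, 4 were in that set, those that begin at 77150001, 77170001, 77200001 and 77220001, each with an adjusted p of 0.971. The 3 steps without the order were the last ones, from 77270001 on. By segment, the stretch from 77.15 to 77.2 Mb had 14 and 15 PPS for control and 43 and 43 for NMDA, a ratio of 2.97. From 77.2 to 77.25 Mb the numbers were 16 and 13 for control and 37 and 40 for NMDA, a ratio of 2.66. From 77.25 to 77.3 Mb they were 6 and 8 for control and 11 and 14 for NMDA, a ratio of 1.79. No test compared these ratios with each other.

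**Figure D2:**
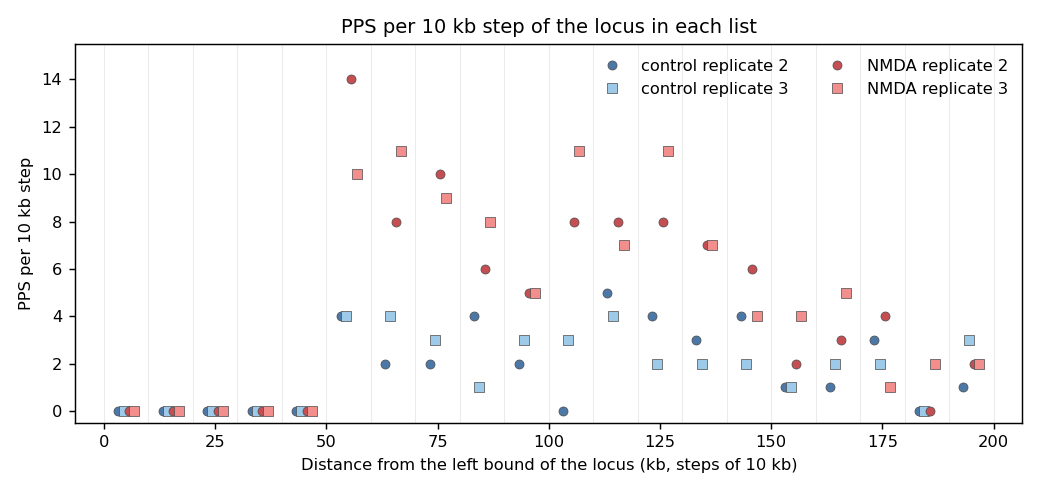
PPS per 10 kb step (y axis) against distance from the left bound of the region in kb (x axis), with 1 point per list and step. The first 5 steps are empty in every list, and on these unscaled counts both NMDA lists (red) lie above both control lists (blue) in 11 of the 15 steps with PPS, with a tie of 4 PPS in the step from 77240001 that is no tie after scaling to list size.

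The flank to the right gave a reference on the same strand, while the flank to the left held 0 PPS in every list. In its first 100 kb there were 7 and 12 PPS for control and 18 and 26 for NMDA, so the excess in NMDA did not end at the bound. In the next 100 kb the numbers were 0 and 6 for control and 1 and 12 for NMDA, which overlap. The remaining 800 kb, from 77500001 on, held 46 and 66 PPS for control and 47 and 70 for NMDA. This far flank, whose left bound was chosen after its values were seen, had a control mean of 56.0 ± 14.1 and an NMDA mean of 58.5 ± 16.3 (SD, n = 2, exact permutation p = 0.667). Its densest 100 kb, from 77700001 on, held 15 and 24 PPS for control and 16 and 24 for NMDA, and the groups overlap.

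Set against the far flank of its own list, the region was richer in both NMDA lists. The ratio of PPS in the region to PPS in the far flank was 0.783 and 0.545 for control and 1.94 and 1.39 for NMDA. This ratio needs no scaling to list size, and it differed 2.51-fold between the groups (log2 difference 1.33, exact permutation p = 0.333, the smallest possible). Since the far flank was bounded after its values were seen, the ratio restates the difference at the region and is not independent evidence. With the whole right flank as reference the fold was 2.06. Without 1 list at a time the log2 difference lay between 1.07 and 1.59.

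**Figure D3:**
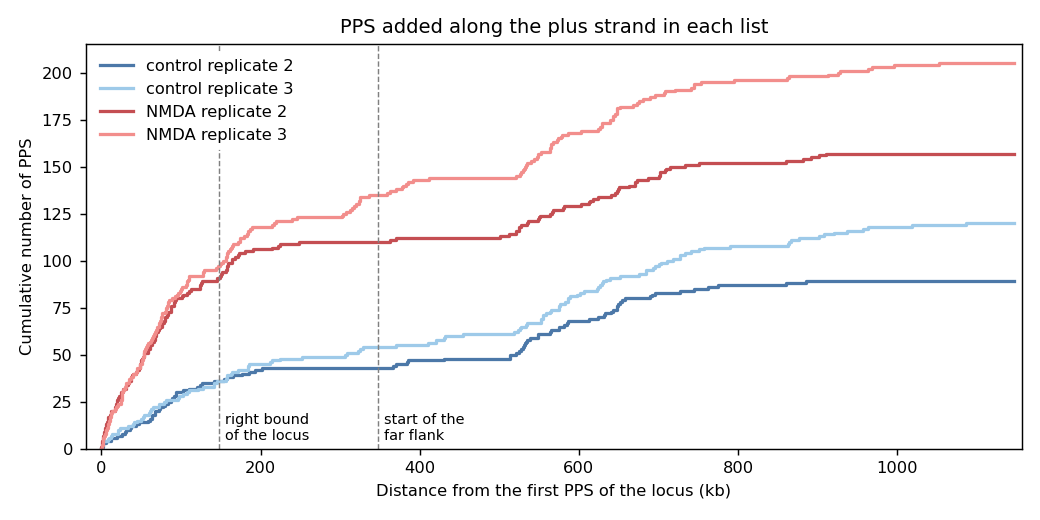
Cumulative number of PPS (y axis) against distance from the first PPS of the region in kb (x axis), 1 line per list. The NMDA lines reach 91 and 97 at the right bound of the region against 36 and 36 for the control lines, and beyond the start of the far flank they gain 47 and 70 against 46 and 66.

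In a fit across the genome, neither window of the region passed the threshold. limma was fitted to log2(PPS per 10000 PPS + 0.5) in 9485 stranded windows of 100 kb with at least 8 PPS, and 0 windows (0.0%) had an adjusted p under 0.05, with 280 at an unadjusted p under 0.05. The window from 77100001, with 14 and 15 PPS for control and 43 and 43 for NMDA, had a log2 difference of 1.29 (SE 0.373, limma unadjusted p = 0.0132, adjusted p = 0.947). The window from 77200001, with 22 and 21 for control and 48 and 54 for NMDA, had a log2 difference of 1.06 (SE 0.348, limma unadjusted p = 0.0225, adjusted p = 0.947). Of all windows, 0.886% were higher in NMDA at an unadjusted p under 0.05, and in 13.5% the NMDA values exceeded those of both controls. The windows of the region belong to each of these sets. Without control replicate 3, limma called 280 windows, all lower in NMDA, and without any other list 0.

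On the plus strands of the 7 chromosomes with few identical PPS, the same model left 938 windows. There limma's unadjusted p was 0.000819 for the first window (rank 2) and 0.00286 for the second (rank 10). Each had a limma adjusted p of 0.268, and 0 windows (0.0%) passed, with 73 at an unadjusted p under 0.05. Of these windows 4.26% were higher in NMDA at an unadjusted p under 0.05, and in 18.1% the NMDA values exceeded those of both controls, against 21.5% on chromosome 16 plus strand. With the PPS of these strands alone as the scale, the first window had rank 1 and an adjusted p of 0.336. The region was proposed with such results known, so these ranks describe it and are not independent evidence. Limma called 4-fold changes in 92% of simulated windows on these strands and 2-fold changes in 27%, and in 35% and 1% over all 9485 windows. The simulated spread already held counting error, which was then added again, and many changed windows could hold fewer PPS than those of the region. These shares may therefore be too low and do not give the chance of missing a change at the region.

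Most PPS of the region came from dsRNase alone. They numbered 33 of 36 in control replicate 2, which is 91.7% (95% Wilson interval 78.2 to 97.1), and 29 of 36 in control replicate 3, 80.6% (65.0 to 90.2). In NMDA replicate 2 they numbered 89 of 91, 97.8% (92.3 to 99.4), and in NMDA replicate 3 79 of 97, 81.4% (72.6 to 87.9). These intervals cover counting error only. The groups overlapped, the control mean being 86.1% ± 7.86 and the NMDA mean 89.6% ± 11.6 (SD, n = 2, exact permutation p = 0.667), and the difference of 3.51 percentage points went to -2.04 without control replicate 3 and to -4.67 without NMDA replicate 2.

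Counted by RNase, PPS that held a dsRNase peak numbered 34 and 30 in control and 90 and 84 in NMDA. On the whole strand such PPS also numbered more in each NMDA list, 1370 and 1142 against 868 and 934 for control, so the order without overlap is not particular to the region. Fitted on dsRNase PPS alone, the windows from 77100001 and 77200001 had log2 differences of 1.06 and 0.84 (limma unadjusted p = 0.236 and 0.292, adjusted p = 0.998 for each). PPS that held an ssRNase peak numbered 3 and 7 in control and 2 and 18 in NMDA, so control replicate 3 lay above NMDA replicate 2. NMDA replicate 2 had few ssRNase peaks on the whole strand, 246 against 631, 573 and 727 in control replicate 2, control replicate 3 and NMDA replicate 3. Its part in the ssRNase numbers of the region was not tested. PPS joined from peaks of both RNases were rare, 1, 1, 1 and 5 in the same order as the list sizes were given.

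The high dsRNase share was a feature of the surroundings as well. In the flanks dsRNase alone gave 83.0% and 88.1% of control PPS and 97.0% and 92.6% of NMDA PPS. The region minus its flanks came to 8.65, -7.54, 0.832 and -11.1 percentage points in control replicates 2 and 3 and NMDA replicates 2 and 3, a mean of -2.30 (exact sign-flip permutation p = 0.75), with no common direction. Against the rest of chromosome 16 plus strand, however, the region was higher in all 4 lists, by 39.0, 21.1, 15.05 and 27.2 percentage points, a mean of 25.6 ± 10.2 (SD, n = 4, exact sign-flip permutation p = 0.125, the smallest that 4 lists allow).

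**Figure D4:**
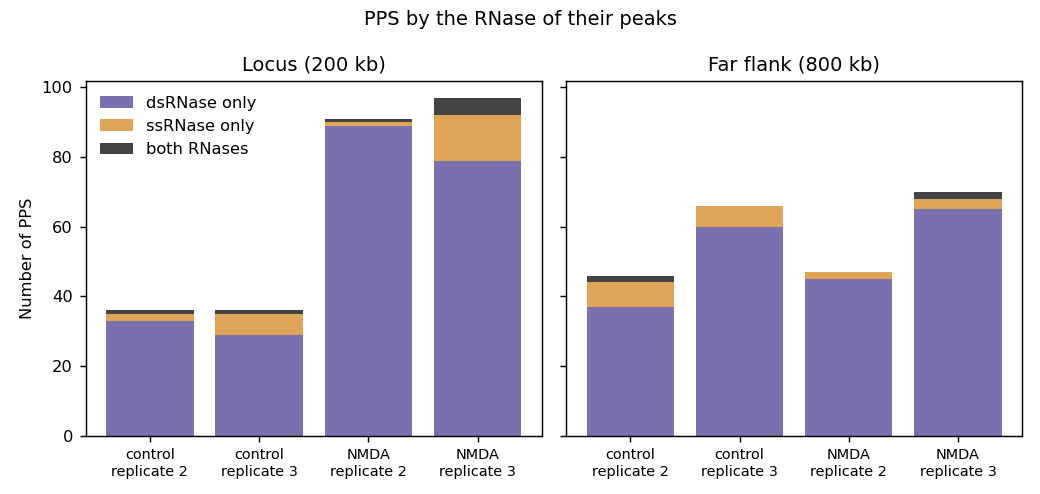
Number of PPS (y axis) by the RNase of their peaks, as stacked bars for each list, in the region (left) and in the far flank (right). dsRNase-only PPS make up most of every bar, 33, 29, 89 and 79 in the region and 37, 60, 45 and 65 in the far flank.

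The numbers in the deposited peak names gave a further readout. Within each list and RNase they increased with position at 100% of steps along chromosome 16 plus strand, and listed peaks skip many numbers. What the skipped numbers stand for is not given in the sources used here. From the first to the last dsRNase peak listed in the region, the names spanned 503 and 818 numbers for control and 678 and 896 for NMDA. The groups overlapped, with means of 660.5 ± 223 and 787 ± 154 (SD, n = 2), a ratio of 1.19 (exact permutation p = 0.667).

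The share of those numbers that was listed did not overlap between groups. It was 6.76% and 3.67% in control and 13.4% and 9.38% in NMDA, a ratio of means of 2.19 (exact permutation p = 0.333). The same order held on the whole strand, where 5.42% and 3.00% of dsRNase numbers were listed in control and 8.27% and 6.24% in NMDA, a ratio of 1.72, and in the far flank, with 3.67% and 2.93% against 4.95% and 5.21%, a ratio of 1.54. A larger share of numbered dsRNase peaks was thus listed in the NMDA lists along the whole strand, and its part in the difference at the region was not tested. As a part of all numbers on the strand, the region spanned 31.0 and 26.3 per 1000 in control and 40.4 and 47.2 in NMDA. The ratio of means was 1.53 with no overlap (exact permutation p = 0.333, the smallest possible). The far flank spanned 65.6 and 65.7 against 54.2 and 67.8, which overlap. A span runs between listed peaks and so depends on which peaks were listed, and it was not computed for other windows.

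**Figure D5:**
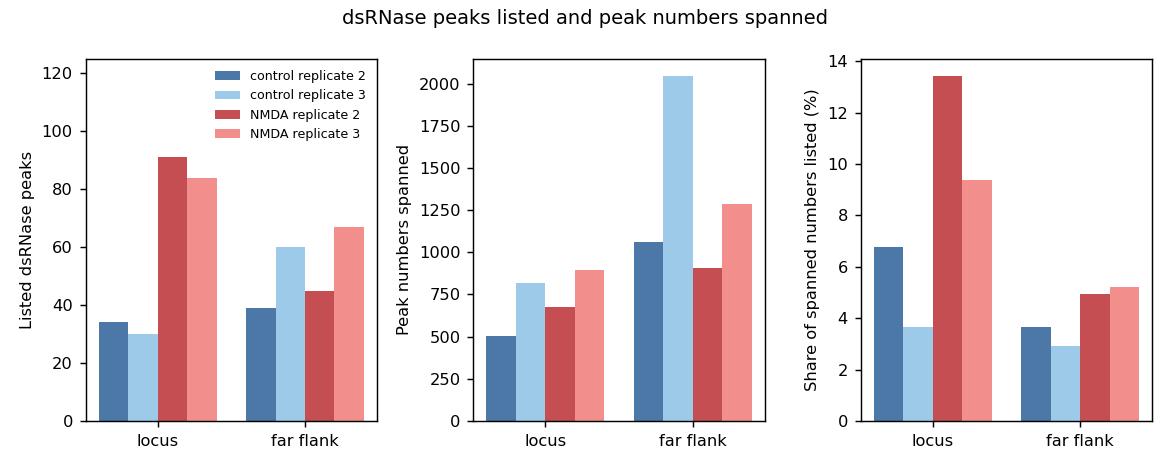
dsRNase peaks listed, peak numbers spanned and the share of spanned numbers that was listed in percent (y axes of the 3 panels), for the region and the far flank, with 1 bar per list. In the region, listed peaks number 34 and 30 in control and 91 and 84 in NMDA, while the numbers spanned overlap between the groups.

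PPS of the region were of ordinary length. The median was 51.5 and 42 bp for control and 52 and 47 bp for NMDA, with an overall range of 12 to 123 bp. The groups overlapped (exact permutation p = 0.667). The region differed from its flanks by 1.5, 0, -1 and 4 bp, a mean of 1.13 bp (exact sign-flip permutation p = 0.5). No PPS reached 150 bp. The longest of each list were chr16:77172255-77172341 with 87 bp in control replicate 2, chr16:77153196-77153293 with 98 bp in control replicate 3, chr16:77216116-77216231 with 116 bp in NMDA replicate 2 and chr16:77204940-77205062 with 123 bp in NMDA replicate 3. The one in control replicate 3 came from ssRNase and the other three from dsRNase.

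Scores are the authors' own, and each was set against other PPS of the same list. The median in the region was 6.19 and 6.20 for control and 5.61 in each NMDA list, against medians of 6.82, 6.82, 7.43 and 6.82 for the whole lists. Because scores tie, only 48.3%, 46.9%, 34.0% and 47.0% of the PPS in the whole lists lay above the median of their list. In the region the share of PPS above that median was 27.8%, 25.0%, 16.5% and 30.9%, and how it compared depended on the reference. It was above that in the flanks in all 4 lists, by a mean of 6.73 percentage points (exact sign-flip permutation p = 0.125). Against the far flank alone, control replicate 2 went the other way (-2.66 percentage points, exact sign-flip permutation p = 0.375 over the 4 lists). Against the rest of the strand it was lower in all 4 lists, by a mean difference of -9.33 percentage points (exact sign-flip permutation p = 0.125). A few values recurred, and the most common one was 5.40 in 15 of 36, 17 of 36 and 39 of 97 PPS of control replicate 2, control replicate 3 and NMDA replicate 3, and 5.61 in 47 of 91 of NMDA replicate 2. Against the flanks the median differed by -0.62, 0.795, 0 and -0.25 (exact sign-flip permutation p = 1), and against the rest of the strand it was lower in all 4 lists, by a mean difference of -1.07 ± 0.572 (SD, n = 4, exact sign-flip permutation p = 0.125). The highest scores were 17.35, 15.39, 13.7 and 17.35.

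Few positions recurred between lists. Joining PPS that share at least 1 bp gave 193 sites, which cover 10706 bp, with a median distance of 515 bp between neighbours. The PPS from 77239707 to 77241733 had copies from 77243779 to 77245805. These copies matched in order, list, length, score and RNase. Every site in both stretches was in a single list. Both stretches were counted in all numbers of PPS, sites, steps and spacing, and the cause of the repeat was not tested. Such copies were not particular to the region. In the far flank, PPS that began at 77672990, 77673092 and 77673208 had copies at 77677742, 77677844 and 77677960. These matched in list, length, score and RNase and were also counted. Of the 193 sites, 139 (72.0%) were in a single list, 46 in 2 lists, 7 in 3 lists and 1 in all 4. In the flanks, 217 of 259 sites (83.8%) were in a single list and 1 was in all 4. The site found in every list was chr16:77224954-77225031, 72.3 kb from the first PPS, with scores of 6.81 and 6.82 in control and 5.61 and 7 in NMDA. Without control replicate 3, 6 sites were in all remaining lists, and without NMDA replicate 3 there were 3.

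The control lists shared little with each other. Between them 4 of 36 PPS (11.1% of each list) overlapped, whereas 20 of 91 and 20 of 97 did between the NMDA lists (22.0% and 20.6%). Control replicate 2 had 17 of its 36 PPS (47.2%) overlapped by NMDA replicate 2, which is 18.7% of the latter. The other three pairs of different treatment shared 27.8% to 30.6% of the control list and 11.3% to 12.4% of the NMDA list. In the flanks the control lists also shared little with each other, 7.55% and 4.76% of their PPS. The NMDA lists shared 22.7% and 13.9% there. A longer list covers more positions, and the part of list size in these shares was not tested.

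Sites found in each NMDA list but absent from the controls numbered 14 of 193 (7.25%), and the opposite order was found at 1 site (0.518%). In the flanks the numbers were 8 (3.09%) and 2 (0.772%) of 259 sites, so the flanks leaned the same way. By number of sites in only 1 treatment, 126 (65.3%) were in NMDA lists alone, 28 (14.5%) in control lists alone and 39 (20.2%) in lists of both treatments. In the flanks these shares were 48.6%, 39.0% and 12.4% of 259 sites. Picked for naming by the lower of their scores, a choice across lists whose score scale is not stated and no ranking of strength, were chr16:77235822-77235888, with 7.43 in NMDA replicate 2 and 9.98 in NMDA replicate 3, chr16:77260150-77260266, also with 7.43 and 9.98, and chr16:77189871-77189971, with 9.39 and 6.82. The control-specific site was chr16:77262951-77262998, with 5.40 in both lists. No test was applied to these counts, since treatment-specific sites become more frequent as the lists of that treatment grow longer.

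Sites that held an ssRNase peak in any list recurred more often than those without, though the ssRNase peak itself mostly did not recur. Of 26 sites that held an ssRNase peak in any list, 15 (57.7%) were in 2 or more lists, against 39 of 167 (23.4%) that held dsRNase peaks alone. In most of these 15 sites only 1 PPS held an ssRNase peak, as at chr16:77224954-77225031, where 3 PPS held dsRNase peaks. A site found in more lists has more chances to hold an ssRNase peak, so this is a description. Among sites in 3 lists, chr16:77216116-77216238, 63.5 kb from the first PPS, held the highest score of the region within each of its lists, tied with other PPS in NMDA replicate 2, with a score of 17.35 in control replicate 2 and scores of 13.7 and 17.35 for NMDA, and it was missing from control replicate 3. It was chosen for mention after its values were seen. Close to the left edge, chr16:77152794-77152930 was in both control lists and in NMDA replicate 2, with scores of 5.40, 5.40 and 6.82.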

How the data were processed

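Per the labels, the authors deposited PPS lists under the name CSAR at a false discovery rate of 5%. Per the submitters' processing notes, cutadapt 1.2.1, TopHat2 2.0.10 and rn6 were used, in no stated role. The labels describe single reads of 50 bases, and their extraction text speaks of purified nuclei from tissue. Per the peak names, each list joins the ssRNase and dsRNase peaks of 1 replicate. The score the authors deposited has no stated scale, and that of a PPS is the highest of its peaks.

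The members, lists and segments were chosen with earlier results of these data known. Groups came from sample titles. Numbers, lengths, scores and shares were compared over the 4 lists by exact two-sided permutation, and region minus flank by sign flips. Windows took PPS by midpoint and were fitted by lmFit and eBayes (trend) of limma 3.58.1, under R 4.3.3, at a Benjamini-Hochberg adjusted p under 0.05. Simulated windows were drawn with a log-normal spread and 200 changed windows averaging at least 5 PPS per list. The site code found 100% of 2000 simulated sites. Python 3.11.15, pandas 2.3.3 and scipy 1.17.1 did the rest. Named positions were the 3 richest steps, sites in all lists, the leading treatment-specific sites, the longest PPS and those at the bounds. The gene and promoter tables at hand belong to another assembly and were not used, so no sequence is printed.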

Additional observations from a re-analysis of the deposited data

Results flagged for a closer look

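NMDA replicate 3 held 1 minus-strand PPS within the bounds of the region, where both control lists held 0. It lay at chr16:77256180-77256229, came from dsRNase and had a score of 5.61. Groups of 2 lists were not tested for lists that stand apart.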

How the results depend on the processing

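The difference in PPS per 10000 PPS kept its sign in 15 of 15 alternatives, with exact p from 0.333 to 1. It fell from 6.77 to 4.02 with the score threshold and to 1.30 for PPS holding an ssRNase peak (exact permutation p = 1). The region to far flank ratio, whose main reference was bounded after its values were seen, kept its sign in 8 of 8. The log2 differences of both windows kept their sign in 18 of 18 each, from 0.737 to 1.55 for the first and 0.290 to 1.26 for the second. Their limma adjusted p lay above the threshold except with the replicate number as a block on the plus strands of 7 chromosomes, a setting added after seeing the data. There the replicate block gave 0.00654 and 0.0191, and 20 windows passed (15 higher, 5 lower), whereas over all windows 2 passed with the replicate block, each lower in NMDA. Same-numbered lists deviated together with a correlation of 0.00535 over all windows and 0.0603 on those strands, so the numbers are not taken as pairs. With the replicate block the difference in PPS per 10000 stayed at 6.77 (exact p = 0.5). The number of windows called was 2 with the score threshold, with windows of at least 1 PPS and with windows of at least 40 PPS, and from 0 to 280 without 1 list, the 280 being lower in NMDA without control replicate 3. The number of sites in all lists was 0 with the score threshold, with PPS holding an ssRNase peak, with PPS holding a dsRNase peak and with the strand thinned to the smallest list, and 1 to 6 without 1 list. The length difference from the flanks turned to -0.625 bp for PPS holding an ssRNase peak and to -1.125 bp against the rest of the strand, and was 0.167 to 1.83 bp without 1 list. The score difference turned to 0.0213 for PPS holding a dsRNase peak and to 0.045 with bounds moved in by 20 kb, and was -0.29 to 0.182 without 1 list. The dsRNase share minus flank turned to 25.6 percentage points against the rest of the strand, and was -5.95 to 0.647 without 1 list. The dsRNase share of NMDA minus control was -4.67 to 11.7 percentage points without 1 list. The left flank alone gave no value, since it holds 0 PPS. The causes of these changes were not tested.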
